A study of Mus musculus with 42 samples.

Results

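Mouse cells sorted as mCherry+/GFP- on day 10 of in vitro reprogramming were set against the embryonic fibroblasts (MEF) they were made from on day 0, across all genes of the deposited count table. The comparison uses 6 of the 42 libraries of the series, 3 of each group, and 16132 of the 48321 gene names in the table passed the filter on low counts and were tested. The day 10 cells carry the source label "Day 10 naivex2 mCherry+/GFP-" and are called a stage III intermediate in the labels, while the MEF are called parental fibroblasts. All 6 libraries come from male animals of a cross between B6; 129S4-Tg(Tet1-mCherry)B37Koh and B6;CBA-Tg(Pou5f1-EGFP)2Mnn/J, with the genotype Tg(mCherry)/wt; Tg(GFP)/wt. The MEF therefore carry the Tet1-mCherry and Pou5f1-EGFP transgenes too, and the sorted cells were those in which the Tet1 reporter was on and the Pou5f1 reporter was off. The groups hold 3 independent lines, numbered 1, 2 and 3, each sampled in both groups. The p-values rest on the spread between lines within groups, estimated over 21 libraries of 7 groups with information shared across genes. They do not use the pairing of samples by line. How the reprogramming factors were delivered, and whether the MEF were sorted, is not given in the sources used here.

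Fibroblasts are mesenchymal cells: they lay down collagen-rich matrix, hold it through integrins and pull on it with contractile actin bundles. On the way to pluripotency they lose this programme and acquire cell-to-cell junctions and polarity, a passage known as the mesenchymal-to-epithelial transition, while the genes that hold the pluripotent state come on. Tet1, whose reporter chose the day 10 cells, encodes an enzyme that oxidises 5-methylcytosine in DNA, and Pou5f1 encodes the pluripotency factor OCT4.

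Counts summed to between 12671685 and 14518737 per library in day 10 cells, and to between 14361592 and 20783265 in MEF. Values below are CPM, each gene's counts scaled to a library of 1000000 counts, given for lines 1, 2 and 3 in this order, and log2 fold changes are day 10 over MEF with their standard error. Correlations of log2 CPM over the genes tested lay between 0.979 and 0.991 among day 10 libraries, between 0.994 and 0.995 among MEF libraries and between 0.768 and 0.783 across the groups. Line 1 of the day 10 cells stood apart in mitochondrially encoded RNA, which took 8.99% of its counts, against 3.14% and 3.05% in the other day 10 lines and 1.75% to 1.94% in MEF. Tet1, the gene behind the sorted reporter, had 816, 684 and 764 CPM in day 10 cells, against 12.1, 9.68 and 9.16 CPM in MEF. Pou5f1 had 484, 742 and 772 CPM in day 10 cells sorted without GFP, against 1.47, 1.01 and 0.946 CPM in MEF, and its counts may include reads from an added factor, as may those of Myc and Klf4.

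The gap between the cells was wide. In edgeR's quasi-likelihood test with Benjamini-Hochberg adjustment at 0.05, 12319 genes were called, 76.4% of those tested, of which 6261 (38.8%) were higher and 6058 (37.6%) lower in day 10 cells. Since so many genes were called, lists of genes are described below by a stricter rule, a test against a fold change of 2, which 2806 genes (17.4%) passed as higher and 3459 (21.4%) as lower, 6265 (38.8%) in all. The shares of 17.4% and 21.4% are the background for every such list count below. The 3 day 10 libraries did not overlap the 3 MEF libraries in 12434 genes (77.1%), and 12038 of the 12319 called genes moved the same way in all 3 lines. In every gene said below to have risen or fallen, the day 10 libraries lay outside the range of the MEF libraries. The median log2 fold change of all genes tested was 0.06. By fitted value alone, 1272 called genes were more than 8-fold higher and 1646 more than 8-fold lower, with no test against that fold. Of the genes tested 430 had 0 counts in MEF and 88 had 0 in day 10 cells, and their fitted values are no bound on the fold. Without line 1 of the day 10 cells 12559 genes were called.

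Among the genes with the largest rises, many had no count at all in MEF. Trh, the precursor of thyrotropin-releasing hormone, had 149, 172 and 143 CPM in day 10 cells and 0 in every MEF library, at least 611-fold higher against a floor of 3 counts per library. Tjp3, a tight junction scaffold, was at least 369-fold higher, and Elf3, an epithelial ETS factor, at least 209-fold. Foxh1, a DNA-binding partner of SMADs downstream of Nodal, had 30.5, 38.02 and 44.4 CPM in day 10 cells and was at least 149-fold higher. The pluripotency gene Dppa4 was at least 136-fold and Lefty2, a secreted Nodal inhibitor, at least 131-fold higher, each with 0 counts in all 3 MEF libraries. Of the genes above 0 in MEF, the zinc finger factor Zscan10 had 154, 142 and 154 CPM in day 10 cells, against 0.0587, 0.0842 and 0 CPM in MEF, a log2 fold change of 11.49 ± 0.23 with an adjusted p of 8.1e-20. The cytochrome P450 gene Cyp2b23 had 143, 90.7 and 94.7 CPM in day 10 cells and 1 count in the 3 MEF libraries together. Smaller rises from 0 included Eras, a Ras-like gene of embryonic stem cells, at least 86.5-fold, the homeobox gene Rhox6, at least 88.4-fold, and Olig2, a factor known from the neural lineage, at least 67.5-fold.

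Genes of fibroblast secretion and contraction were among the largest falls. The smooth muscle gene Cnn1, calponin, had 0.421, 0.066 and 0.214 CPM in day 10 cells, against 224, 236 and 243 CPM in MEF, a log2 fold change of -10.01 ± 0.56. The IL-33 receptor gene Il1rl1 fell to 0.505, 0.33 and 0.142 CPM in day 10 cells, against 281, 375 and 272 CPM in MEF. In each of these genes every day 10 library lay far under every MEF library. Dlx2, a homeobox gene, had no count in any day 10 library and 16.8, 16.6 and 19.5 CPM in MEF, at least 69.8-fold lower, and the cytokine gene Tslp was at least 49.4-fold lower in the same way. By change in CPM, the matrix protein gene Thbs1 lost most, with 111, 92.9 and 68.1 CPM in day 10 cells, against 14323, 12823 and 16045 CPM in MEF. The long noncoding RNA H19 had 213, 161 and 115 CPM in day 10 cells, against 6185, 5990.5 and 5795 CPM in MEF, and its imprinted neighbour Igf2, a growth factor, had 64.1, 57.1 and 35.1 CPM, against 6044, 5703 and 5728 CPM in MEF. The genes with the largest gain in CPM were mostly mitochondrial: mt-Cytb had 19497, 6313 and 6283 CPM in day 10 cells, against 3870.0, 4302 and 4144 CPM in MEF, so line 1 alone set most of its mean. This order rests on line 1. Without it mt-Cytb gained 2192.5 CPM on average and mt-Nd5 305.3 CPM. Hsp90aa1 then gained 2405.6 CPM, Hsp90ab1 2380.9 CPM and Pprc1 2281.5 CPM, more than mt-Cytb; Hsp90aa1 and Pprc1 were chosen after their values were seen. The call of Pprc1 was itself lost without day 10 line 3 or any 1 of the MEF lines. Without day 10 line 1 the log2 fold change of mt-Cytb was 0.64 in place of 1.38, and that of mt-Nd5 was 0.18 in place of 1.30, where its call was lost (adjusted p = 0.279), as it was in the fit of only the 6 libraries (adjusted p = 0.0538). The chaperone gene Hsp90ab1 had 6601, 5479 and 5534 CPM in day 10 cells, against 3080.1, 3248 and 3049 CPM in MEF, and rose by 0.91 ± 0.09 on the log2 scale.

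**Figure D1:**
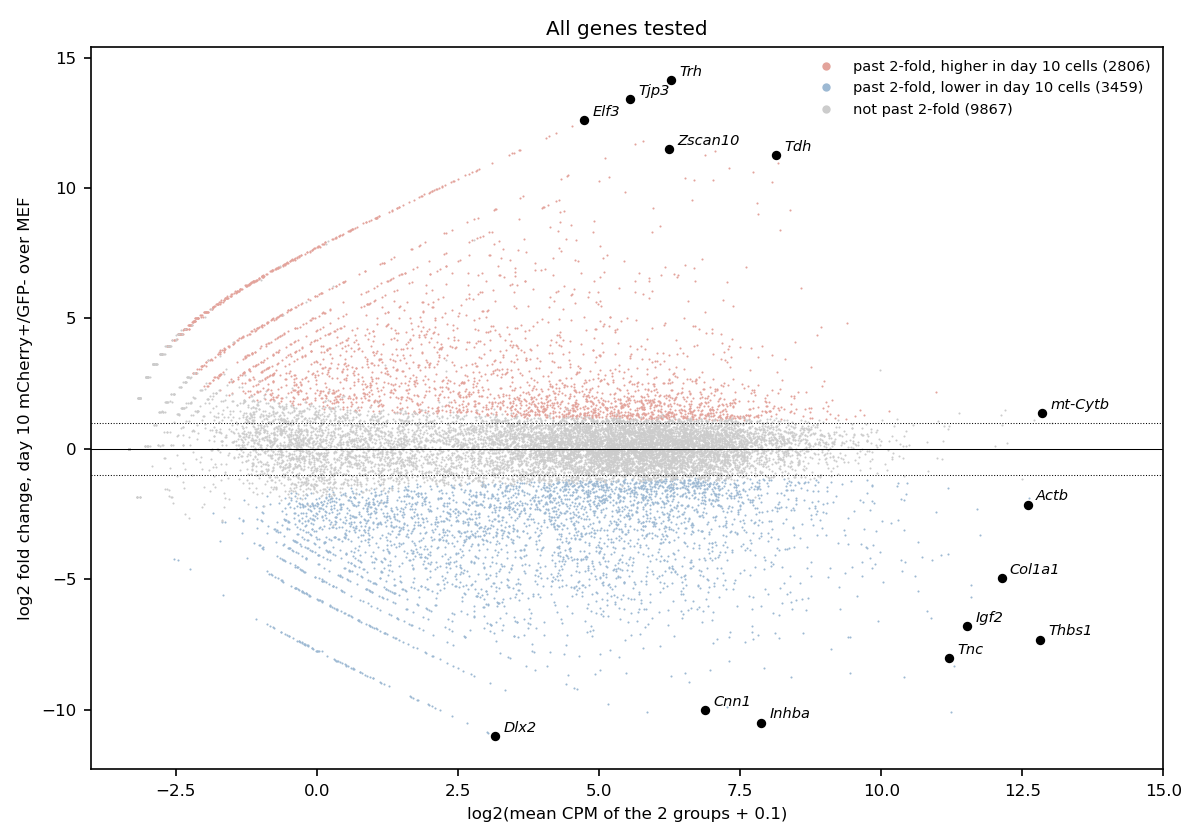
Log2 fold change of day 10 mCherry+/GFP- cells over MEF (vertical) against the log2 of the mean CPM of the groups plus 0.1 (horizontal) for the 16132 genes tested, 1 point per gene, red for the 2806 past 2-fold higher, blue for the 3459 past 2-fold lower and grey for the rest, with dotted lines at a fold of 2. The points spread to either side of 0 with Inhba and Cnn1 at the lower edge and Trh and Tjp3 at the upper, where genes with no count in MEF lie at fitted values that are no bound on their fold.

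Collagens fell as a body. Of 24 genes for collagen chains and the enzymes that modify and cross-link them, all tested, 0 were past 2-fold higher and 22 past 2-fold lower (against 21.4% of all genes tested), with a median log2 fold change of -4.17 against 0.06 over all genes. Col5a1, a chain that seeds fibrils, had 63.5, 95.8 and 55.99 CPM in day 10 cells, against 3199, 3118 and 3128 CPM in MEF, and Col12a1, a fibril-associated chain, had 54.9, 54.9 and 32.6 CPM, against 3548, 3487 and 3612 CPM in MEF. Lox, the enzyme that cross-links collagen and elastin, had 58.2, 41.6 and 24.1 CPM in day 10 cells, against 3812, 3415 and 3908 CPM in MEF, and the collagen chaperone Serpinh1 173, 202 and 163 CPM, against 3295, 3111 and 3208 CPM in MEF. The day 10 lines stayed apart from MEF in each of these genes by more than 10-fold. The fall was uneven within the family: Col3a1 kept 352, 460.1 and 268 CPM in day 10 cells, against 1576, 1543 and 1438 CPM in MEF, a log2 fold change of -2.08 ± 0.40 where that of Col1a2 was -4.09 ± 0.42. The lysyl hydroxylases Plod1 and Plod2 were the members not past 2-fold, with log2 fold changes of -0.18 ± 0.12 (not called, but called lower without line 3 of the day 10 cells) and -0.63 ± 0.12. In bulk RNA such as this, fewer cells that make a transcript and less of it per cell cannot be told apart. The 6 cartilage markers fell too, summing to between 3.83 and 6.15 CPM in day 10 cells, against 709 to 785 CPM in MEF. Col2a1 and Col9a1 among them are collagen genes, and Col2a1 made up most of the MEF sum. The part of cartilage cells in these falls was not tested.

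Most matrix glycoproteins and proteoglycans fell, and members of the basement membrane moved both ways. Of 21 such genes 1 was past 2-fold higher and 15 past 2-fold lower, with a median of -2.36. Tnc, tenascin C, had 22.3, 20.5 and 11.9 CPM in day 10 cells, against 4520.3, 4808 and 4748 CPM in MEF, and Fbln2, fibulin 2, had 22.6, 23.8 and 14.5 CPM, against 1899, 2029 and 1915 CPM in MEF. Fibronectin, Fn1, fell by less, with 2981, 2393 and 2639 CPM in day 10 cells, against 9932, 9794 and 9904 CPM in MEF. Lama1, the laminin chain of early embryonic basement membranes, was the member that rose past 2-fold: it had 317, 279 and 342 CPM in day 10 cells, against 17.3, 16.8 and 15.96 CPM in MEF, a log2 fold change of 4.23 ± 0.22 with an adjusted p of 2.5e-12. Lama5 rose by 0.84 ± 0.15, while Lamb1 fell by 2.04 and Lamc1, the shared gamma chain, had 767, 749 and 771 CPM in day 10 cells and 829, 800.2 and 815 CPM in MEF, which were not called apart. The small proteoglycan genes Dcn and Lum, known fibroblast genes, were not called either, with log2 fold changes of -0.65 ± 0.35 and 0.49 ± 0.41. Dcn was called lower with the line as a replicate block (adjusted p = 0.0312) and in the fit of only the 6 libraries (adjusted p = 0.0486). Its adjusted p lay between 0.0312 and 0.345 over the alternatives.

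Proteases and their inhibitors, which remodel matrix, and integrins, which bind it, fell too. Of 14 protease and inhibitor genes 1 was past 2-fold higher and 12 past 2-fold lower. The urokinase gene Plau had 1.60, 1.91 and 1.57 CPM in day 10 cells, against 134, 118 and 141 CPM in MEF, and the metalloprotease inhibitor Timp3 had 22.5, 18.7 and 10.97 CPM, against 1277, 1184 and 1194 CPM in MEF. Mmp3, stromelysin, ran the other way with 13.4, 16.4 and 12.5 CPM in day 10 cells, against 3.58, 5.56 and 3.43 CPM in MEF. Among 16 integrin chains 1 was past 2-fold higher and 11 past 2-fold lower. Itgb1, the beta chain that most matrix receptors share, had 296, 223 and 225 CPM in day 10 cells, against 2929, 2930.0 and 3041 CPM in MEF, and its partner for fibronectin, Itga5, had 33.4, 44.4 and 43.5 CPM, against 799.7, 835 and 846 CPM in MEF. The rise was in Itgb4, the laminin-binding beta chain of epithelial hemidesmosomes, with 80.1, 75.5 and 73.1 CPM in day 10 cells, against 4.11, 4.21 and 5.20 CPM in MEF. Its only known partner, Itga6, was not called, at 299.5, 275 and 273 CPM in day 10 cells and 227, 288 and 248 CPM in MEF. It was called higher without day 10 line 2, day 10 line 3 or MEF line 2, and with scaling by totals alone.

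Junctional genes moved in the opposite direction. Of 27 genes for tight junctions, cell polarity and epithelial trafficking 26 were tested, and 21 were past 2-fold higher (against 17.4% of all genes tested) and 1 past 2-fold lower, with a median log2 fold change of 4.13. Claudins, which seal the space between epithelial cells, rose in 5 of 6 tested: Cldn6 had 82.4, 144 and 177 CPM in day 10 cells, against 0.176, 0.589 and 0.355 CPM in MEF, and Cldn7 had 19.7, 42.7 and 53 CPM, against 0.176, 0.0842 and 0.0591 CPM in MEF. Line 1 was the lowest of the day 10 lines for both, and still far above every MEF library. Cldn1 was the claudin that fell, with 0.0842, 0.066 and 0 CPM in day 10 cells, against 2.52, 2.53 and 2.36 CPM in MEF. Of the ZO scaffold genes, Tjp1 had a log2 fold change of 0.31 ± 0.11, while Tjp3 had no count in MEF. The call of Tjp1 was lost without line 1 of the day 10 cells (adjusted p = 0.191) and in DESeq2's test (adjusted p = 0.0828). Crb3, of the apical Crumbs complex, had 16.4, 36.04 and 44.4 CPM in day 10 cells, against 0.0587, 0 and 0.0591 CPM in MEF. The membrane protease St14 (matriptase) and its inhibitors rose together: St14 by 6.44 ± 0.16, Spint1 by 8.32 ± 0.17 and Spint2 by 4.17 ± 0.18, on the log2 scale.

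Among 15 cadherins, catenins and desmosomal genes 3 were past 2-fold higher and 4 past 2-fold lower, near the shares of all genes tested (17.4% and 21.4%). Cdh2, the N-cadherin of mesenchyme, had 3.79, 1.91 and 1.07 CPM in day 10 cells, against 179, 175 and 180.0 CPM in MEF, and Cdh11, the cadherin of fibroblasts and bone, had 15.7, 11.4 and 7.05 CPM, against 699, 652 and 633 CPM in MEF. The desmosomal genes Dsg2 and Dsp rose, Dsg2 to 219, 155 and 171 CPM in day 10 cells, against 1.17, 1.26 and 1.60 CPM in MEF, and Dsp by 4.42 ± 0.19 on the log2 scale. The catenins that link all classical cadherins to actin fell by less, with log2 fold changes of -0.43 ± 0.07 for Ctnnb1 and -0.45 ± 0.08 for Ctnna1, and the call of Ctnnb1 was lost when libraries were scaled by their totals alone (adjusted p = 0.0926). Of 13 intermediate filament and lamin genes 2 were past 2-fold higher and 9 past 2-fold lower. Most keratins fell: of the 6 in this list 1 was past 2-fold higher and 5 past 2-fold lower. Their median log2 fold change was -3.75 with genes at 0 in a group put at their bound. The simple-epithelium keratins did not move as a pair: Krt8 had 15.9, 15.2 and 19.2 CPM in day 10 cells, against 7.98, 4.63 and 4.73 CPM in MEF, whereas its partner Krt18 had 13.4, 11.6 and 13.8 CPM, against 41.95, 27.5 and 32.04 CPM in MEF, a fall that DESeq2's test did not call (adjusted p = 0.0558). The lamins of the nuclear envelope moved apart: Lmna fell to 80.2, 93.9 and 101 CPM in day 10 cells, against 1104, 1157 and 1091 CPM in MEF, and Lmnb1 rose to 592, 586 and 604 CPM, against 264, 248 and 269 CPM in MEF.

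The transcription factors that set these states split cleanly. Of 14 mesenchymal factors 11 were tested and all 11 were past 2-fold lower, with a median of -5.26, and all 9 epithelial factors were past 2-fold higher, with a median of 5.16 when genes at 0 in MEF are put at their bound. Snai1, a repressor of E-cadherin, had 0.926, 1.78 and 0.926 CPM in day 10 cells, against 72.2, 78.4 and 79.8 CPM in MEF, and its relative Snai2 had 1.77, 0.726 and 0.57 CPM, against 47.5, 46.4 and 48.01 CPM in MEF. Zeb1, another such repressor, fell less, with 21.2, 14.7 and 11.3 CPM in day 10 cells, against 109, 111 and 111 CPM in MEF. Prrx1, a factor of limb and skin mesenchyme, had 20.4, 14.9 and 8.76 CPM in day 10 cells, against 652, 660.0 and 659 CPM in MEF. On the epithelial side, Grhl3 had 64.8, 65.9 and 69.8 CPM in day 10 cells, against 0.469, 0.253 and 0.473 CPM in MEF, and its relative Grhl2 28.8, 33.2 and 32.6 CPM, against 0.0587, 0.0842 and 0 CPM in MEF. Ovol2, a repressor of mesenchymal genes, had 0 counts in MEF and 7.41, 9.57 and 10.2 CPM in day 10 cells, at least 35.9-fold higher. Esrp1, which directs epithelial splicing, had 118, 122 and 133 CPM in day 10 cells, against 0.176, 0.253 and 0.177 CPM in MEF, a log2 fold change of 9.24 ± 0.17 with an adjusted p of 1.3e-20.

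**Figure D2:**
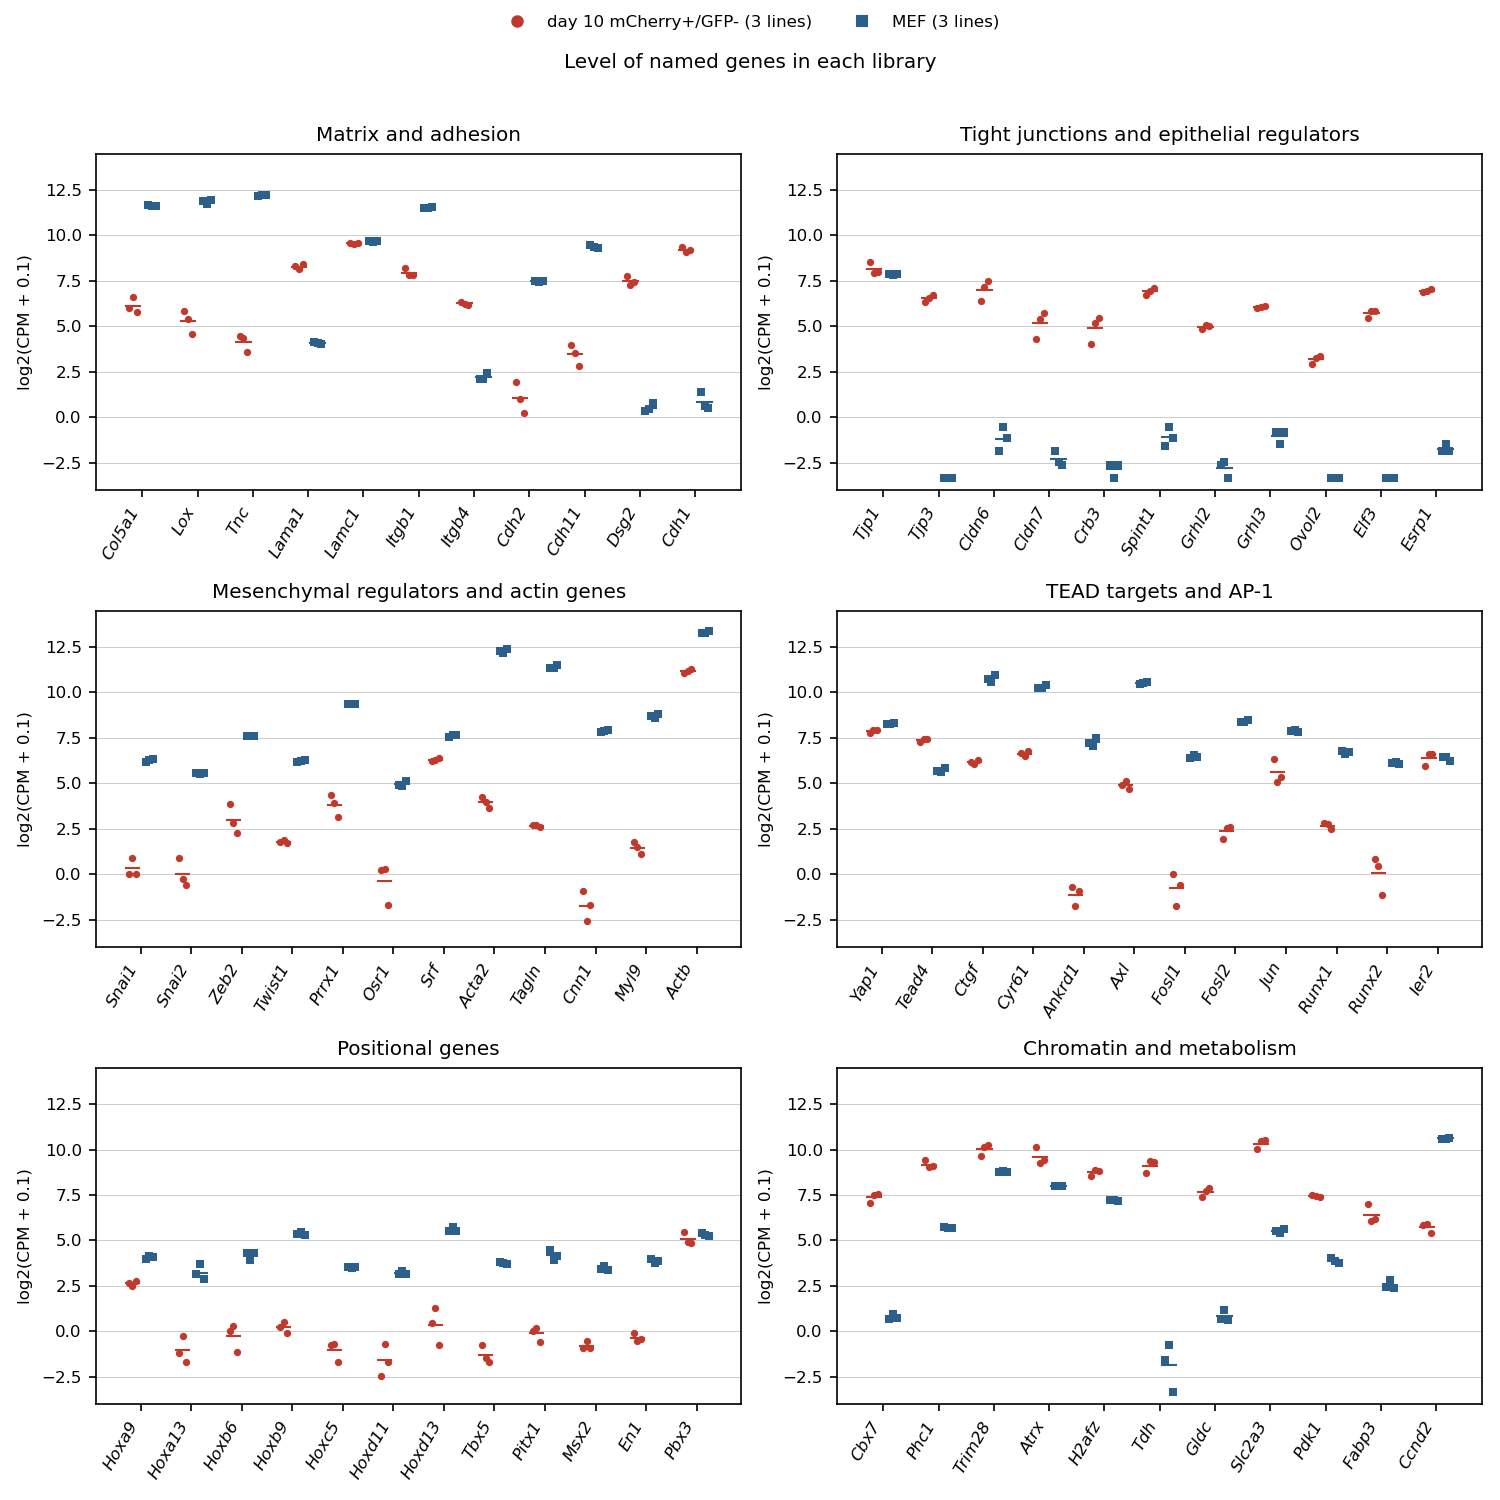
Level of named genes as log2(CPM + 0.1) in each library, in 6 panels by role, with red circles for the 3 day 10 mCherry+/GFP- lines, blue squares for the 3 MEF lines and a bar at each group's mean. Matrix, actin, mesenchymal and positional genes lie lower in day 10 cells and junctional and epithelial genes higher, with Itgb4, Lama1 and Tead4 above MEF among genes of families that mostly lie below it.

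Genes of the actin cytoskeleton, many of them targets of the factor SRF and its actin-sensing MRTF cofactors, fell without exception: all 22 were called lower and 21 were past 2-fold, with a median of -3.85. Smooth muscle genes were among those that fell furthest. Acta2, alpha smooth muscle actin, had 18.7, 15.6 and 12.3 CPM in day 10 cells, against 4963, 4656 and 5284 CPM in MEF, and Tagln, transgelin, had 6.40, 6.40 and 5.91 CPM, against 2615, 2567 and 2887 CPM in MEF. Myl9, the regulatory light chain of smooth muscle myosin, had 3.37, 2.71 and 2.07 CPM in day 10 cells, against 421, 387 and 457 CPM in MEF. Genes of every cell's cytoskeleton fell less, with 2112, 2329.5 and 2461 CPM for Actb in day 10 cells, against 9869.5, 9880.3 and 10572 CPM in MEF, and a log2 fold change of -2.31 ± 0.09 for Myh9. Srf itself had 73.7, 78.3 and 84.98 CPM in day 10 cells, against 185, 199 and 199.9 CPM in MEF, and Mkl1, which encodes MRTF-A, had a log2 fold change of -2.09 ± 0.08. Myocd, the smooth muscle cofactor of SRF, had 1 count in the 3 day 10 libraries together, against 12.8, 8.08 and 12.5 CPM in MEF. Of the 10 skeletal muscle markers 8 were called lower with these genes (against 37.6% of all genes tested) and 1, Mylpf, higher. Their sums were 123 to 163 CPM in day 10 cells, nearly all of it Mylpf, against 235 to 301 CPM in MEF, and their part was not tested.

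YAP and TAZ are coactivators that enter the nucleus of spread, tensed cells and act through TEAD factors. Yap1 had 214, 247 and 243 CPM in day 10 cells, against 305, 305 and 319 CPM in MEF, a difference whose call was lost when libraries were scaled by their totals alone (adjusted p = 0.156), and Wwtr1, which encodes TAZ, had 78.8, 57.7 and 55.2 CPM, against 210.4, 209 and 218 CPM in MEF. The TEAD factors diverged: Tead4 rose to 154, 176 and 176 CPM in day 10 cells, against 51.3, 48.7 and 57.5 CPM in MEF, while Tead3 fell to 12.04, 10.5 and 8.90 CPM, against 92.3, 88.9 and 92.4 CPM in MEF. All 6 target genes in the list were past 2-fold lower, with a median of -4.12, and of the 18 genes of the pathway 1 was past 2-fold higher and 13 past 2-fold lower. Ctgf had 72.9, 67.6 and 79 CPM in day 10 cells, against 1725, 1546 and 1986 CPM in MEF. Ankrd1 had 0.505, 0.198 and 0.427 CPM in day 10 cells, against 149, 134 and 183 CPM in MEF, and Axl, a receptor kinase, had 29.5, 34.4 and 26 CPM, against 1437, 1486 and 1528 CPM in MEF. The letters GGAATG, a core that TEAD factors bind, were 1 of 7 motifs counted in the promoters of the lists, and no other is reported. They stood on either strand in 8 of the 11 promoters of the whole list that matched a RefSeq entry. These were Ankrd1, Cyr61, Axl, Ajuba, Vgll3, Wwtr1, Yap1 and Tead3, so factors of the pathway are among them and the count is not one of targets. The letters stood in 12% of the promoters of all genes tested and in 14.7% of all 32817 promoters of the same length. The promoters of 3 targets are shown because they carry these letters and their genes fell with the rest of the targets, in RefSeq's GRCm38.p6 from 250 bases before to 50 after the start, 5′ to 3′ along the gene, with GGAATG or its reverse complement in capitals. The first is on the minus strand at chr19:36119795-36120094 with sites starting at -210 and -123, the next on the minus strand at chr3:145649936-145650235 with a site at -103, and the last on the minus strand at chr7:25788684-25788983 with a site at -233.
Ankrd1: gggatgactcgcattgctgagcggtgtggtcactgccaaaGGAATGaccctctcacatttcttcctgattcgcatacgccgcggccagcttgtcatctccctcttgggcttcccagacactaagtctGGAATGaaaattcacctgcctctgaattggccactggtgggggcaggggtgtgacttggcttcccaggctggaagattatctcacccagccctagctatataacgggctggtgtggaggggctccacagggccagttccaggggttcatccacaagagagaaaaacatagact
Cyr61: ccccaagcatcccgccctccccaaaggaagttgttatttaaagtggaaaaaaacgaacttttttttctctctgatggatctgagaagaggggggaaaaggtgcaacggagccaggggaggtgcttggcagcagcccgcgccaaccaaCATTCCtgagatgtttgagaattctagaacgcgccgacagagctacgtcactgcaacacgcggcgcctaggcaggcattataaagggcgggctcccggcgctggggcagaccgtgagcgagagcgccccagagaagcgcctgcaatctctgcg
Axl: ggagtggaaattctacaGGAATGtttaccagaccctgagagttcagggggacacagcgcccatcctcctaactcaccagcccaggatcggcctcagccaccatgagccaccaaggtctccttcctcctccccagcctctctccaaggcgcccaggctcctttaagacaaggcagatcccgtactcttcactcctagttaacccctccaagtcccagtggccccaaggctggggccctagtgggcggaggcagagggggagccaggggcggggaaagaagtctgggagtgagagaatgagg
Cyr61, which encodes a secreted matricellular protein, had 99.7, 91.2 and 108 CPM in day 10 cells, against 1232, 1216 and 1344 CPM in MEF. Such letters describe these windows and show no binding. Over all genes GGAATG stood in 12.3% of the promoters of genes past 2-fold higher and in 13.7% of those past 2-fold lower. It stood in 11.3% of those of genes not past 2-fold. These shares were not tested against each other, and only 66.4% of the genes tested had a promoter entry. The count of the list has the same limit, with 11 promoters for its 18 genes.

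AP-1 factors and other immediate-early genes, which growth factors and stress switch on in fibroblasts, were low in day 10 cells. Of 20 such genes 19 were tested, 0 were past 2-fold higher and 15 past 2-fold lower, with a median of -2.66. Fosl1 had 0.926, 0.198 and 0.57 CPM in day 10 cells, against 83.3, 92.8 and 86.4 CPM in MEF, and Fosl2 had 3.79, 5.68 and 6.05 CPM, against 336, 336 and 351 CPM in MEF. Fos and Jun fell less, Fos to 40.3, 28.2 and 23.01 CPM in day 10 cells, against 97.9, 96.3 and 72.4 CPM in MEF, and Jun to 81.7, 33.6 and 41.03 CPM, against 238, 241 and 224 CPM in MEF. Runx2, a Runt factor of bone and mesenchyme, had 1.68, 1.25 and 0.356 CPM in day 10 cells, against 70.1, 71.6 and 66.4 CPM in MEF. Ier2 was the tested member that was not called, with 61.2, 98.1 and 98.4 CPM in day 10 cells and 86.7, 87.4 and 75.1 CPM in MEF. It was called higher without line 1 of the day 10 cells (log2 fold change 0.26).

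Genes of positional identity fell. Of 34 Hox genes, which record a cell's place along the body axis, 25 were tested, all 25 were called lower and 23 were past 2-fold, with a median of -3.75. Of the 9 that were not tested, 8 lie for at least 98.6% of their length (Hoxd3) under another gene on the same strand, where reads were left uncounted, so their low counts say little about their RNA. Hoxb9 had 1.09, 1.32 and 0.855 CPM in day 10 cells, against 41.4, 43.5 and 39.9 CPM in MEF, and Hoxd13, a gene of the digits, had 1.26, 2.31 and 0.499 CPM, against 45.9, 53.2 and 45.2 CPM in MEF. Hoxa13 had 0.337, 0.726 and 0.214 CPM in day 10 cells, against 8.68, 12.7 and 7.21 CPM in MEF. Hoxa7, which was called but not past 2-fold, had 7.24, 8.18 and 7.19 CPM in day 10 cells, against 14.4, 14.6 and 15.2 CPM in MEF (adjusted p = 0.065 in DESeq2's test). Values for Hoxa2, Hoxc5, Hoxc10 and Hoxd10 rest on the part of each gene that no other gene overlaps. Among 20 limb and positional factors 0 were past 2-fold higher and 18 past 2-fold lower. Tbx5, the forelimb factor, had 0.505, 0.264 and 0.214 CPM in day 10 cells, against 13.7, 13.4 and 13.1 CPM in MEF, and Pitx1, the hindlimb factor, had 0.926, 1.06 and 0.57 CPM, against 22.1, 15.2 and 17.3 CPM in MEF. Pbx3, a Hox cofactor, was not called, with 43.5, 29.8 and 29.4 CPM in day 10 cells and 41.8, 38.6 and 37.4 CPM in MEF. It was called lower without line 1 of the day 10 cells (log2 fold change -0.39).

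Most genes of the TGF-beta superfamily fell. Of 29 genes of the TGF-beta, BMP and Nodal pathways 6 were past 2-fold higher and 20 past 2-fold lower, where the shares of all genes tested were 17.4% and 21.4%. Among the 11 ligands 2 were past 2-fold higher and 8 past 2-fold lower. Tgfb3 had 3.20, 3.70 and 2.64 CPM in day 10 cells, against 417, 383 and 445 CPM in MEF, and Tgfb1 had 2.53, 3.04 and 1.71 CPM, against 122, 116 and 113 CPM in MEF. The ligands that rose were Nodal, with 23.99, 37.2 and 40.5 CPM in day 10 cells, against 0, 0.168 and 0 CPM in MEF, and Gdf3, with 38.7, 42.05 and 43.1 CPM, against 0.117, 0.0842 and 0 CPM in MEF. Receptors were split likewise: Tgfbr2, the TGF-beta type II receptor, fell to 12.04, 16.8 and 10.8 CPM in day 10 cells, against 136, 137 and 127 CPM in MEF, and Acvr2b, a type II receptor for Nodal and activin, rose to 18.01, 31.9 and 34.7 CPM, against 3.34, 2.78 and 2.07 CPM in MEF. Tdgf1, the Nodal coreceptor Cripto, had 463, 425 and 379.7 CPM in day 10 cells, against 0.235, 0.589 and 0.0591 CPM in MEF. Secreted antagonists of BMP fell, with Nog at 0.0842, 0 and 0 CPM in day 10 cells, against 16.2, 15.2 and 18.4 CPM in MEF, and Grem1 at 1.60, 0.396 and 0.285 CPM, against 131, 148 and 125 CPM in MEF. The Nodal antagonists Lefty1 and Lefty2 rose, Lefty1 to 14.5, 20.7 and 12.6 CPM in day 10 cells, against 0.704, 0.926 and 0.473 CPM in MEF.

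WNT genes mostly fell. Of 29 genes 27 were tested, 4 were past 2-fold higher and 16 past 2-fold lower, and of 8 ligands 0 were past 2-fold higher and 6 past 2-fold lower. Wnt5a, a ligand of the beta-catenin-independent branch, had 3.20, 3.10 and 1.71 CPM in day 10 cells, against 258, 246 and 254 CPM in MEF, and Wnt4 had 0.505, 0.528 and 0.784 CPM, against 30.6, 28.3 and 29.8 CPM in MEF. Frizzled receptors diverged, with Fzd5 at 147, 186 and 203 CPM in day 10 cells, against 28.1, 28.1 and 31.9 CPM in MEF, and Fzd1 at 5.05, 4.75 and 3.06 CPM, against 113, 108 and 113 CPM in MEF. The soluble inhibitors did as well: Sfrp1 rose to 296, 272 and 235 CPM in day 10 cells, against 71.5, 67.5 and 72.3 CPM in MEF, and Sfrp2 fell to 7.91, 5.48 and 4.49 CPM, against 69.7, 65.9 and 72.8 CPM in MEF. Tcf7l1, a repressor of WNT targets in embryonic stem cells, had 268, 184 and 197 CPM in day 10 cells, against 64.8, 58.9 and 59.1 CPM in MEF, and Lef1, an activator, had 0.842, 0.33 and 0.356 CPM, against 11.4, 10.02 and 8.69 CPM in MEF. Axin2, a feedback target of beta-catenin, fell by less, with a log2 fold change of -1.18 ± 0.26. The R-spondin receptor gene Lgr5 was not called, at 1.43, 0.792 and 1.07 CPM in day 10 cells and 1.47, 1.60 and 1.54 CPM in MEF. Tcf7 lies in large part under another gene on the same strand, and its rise of 2.58 ± 0.30 is uncertain.

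In the PDGF and FGF group 26 genes were listed, 25 tested, 3 past 2-fold higher and 12 past 2-fold lower. The PDGF receptors of fibroblasts fell, Pdgfrb to 13.9, 19.8 and 12.3 CPM in day 10 cells, against 306, 297 and 279.6 CPM in MEF, and their ligand Pdgfc to 1.77, 1.52 and 1.07 CPM, against 102, 103 and 102 CPM in MEF. Fgf4, the FGF of the inner cell mass, had 171, 252 and 285 CPM in day 10 cells, against 0.117, 0.0842 and 0.0591 CPM in MEF, a log2 fold change of 11.27 ± 0.28, while the mesenchymal ligand Fgf7 had 2.02, 1.65 and 0.997 CPM, against 83.8, 60.5 and 80.3 CPM in MEF. Of the 4 FGF receptors 3 were called lower and 1 of them, Fgfr3, was past 2-fold. Their log2 fold changes were -0.66 ± 0.08 for Fgfr1, 0.10 ± 0.11 (not called) for Fgfr2, -2.49 ± 0.37 for Fgfr3 and -1.49 ± 0.57 for Fgfr4. The call of Fgfr4 was lost without day 10 line 1 or MEF line 1 and with scaling by totals alone. Fgfr2 was called higher without line 2 of the day 10 cells and with scaling by totals alone. Feedback genes of the ERK pathway did not move as a block: Etv5 rose to 225, 283 and 283 CPM in day 10 cells, against 47.2, 52.03 and 46.7 CPM in MEF, Dusp4 fell to 10.8, 16.04 and 15.5 CPM, against 108, 108 and 113 CPM in MEF, and Spry4 was not called. The value of Fgf2 is uncertain, since most of that gene overlaps another on the same strand.

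**Figure D3:**
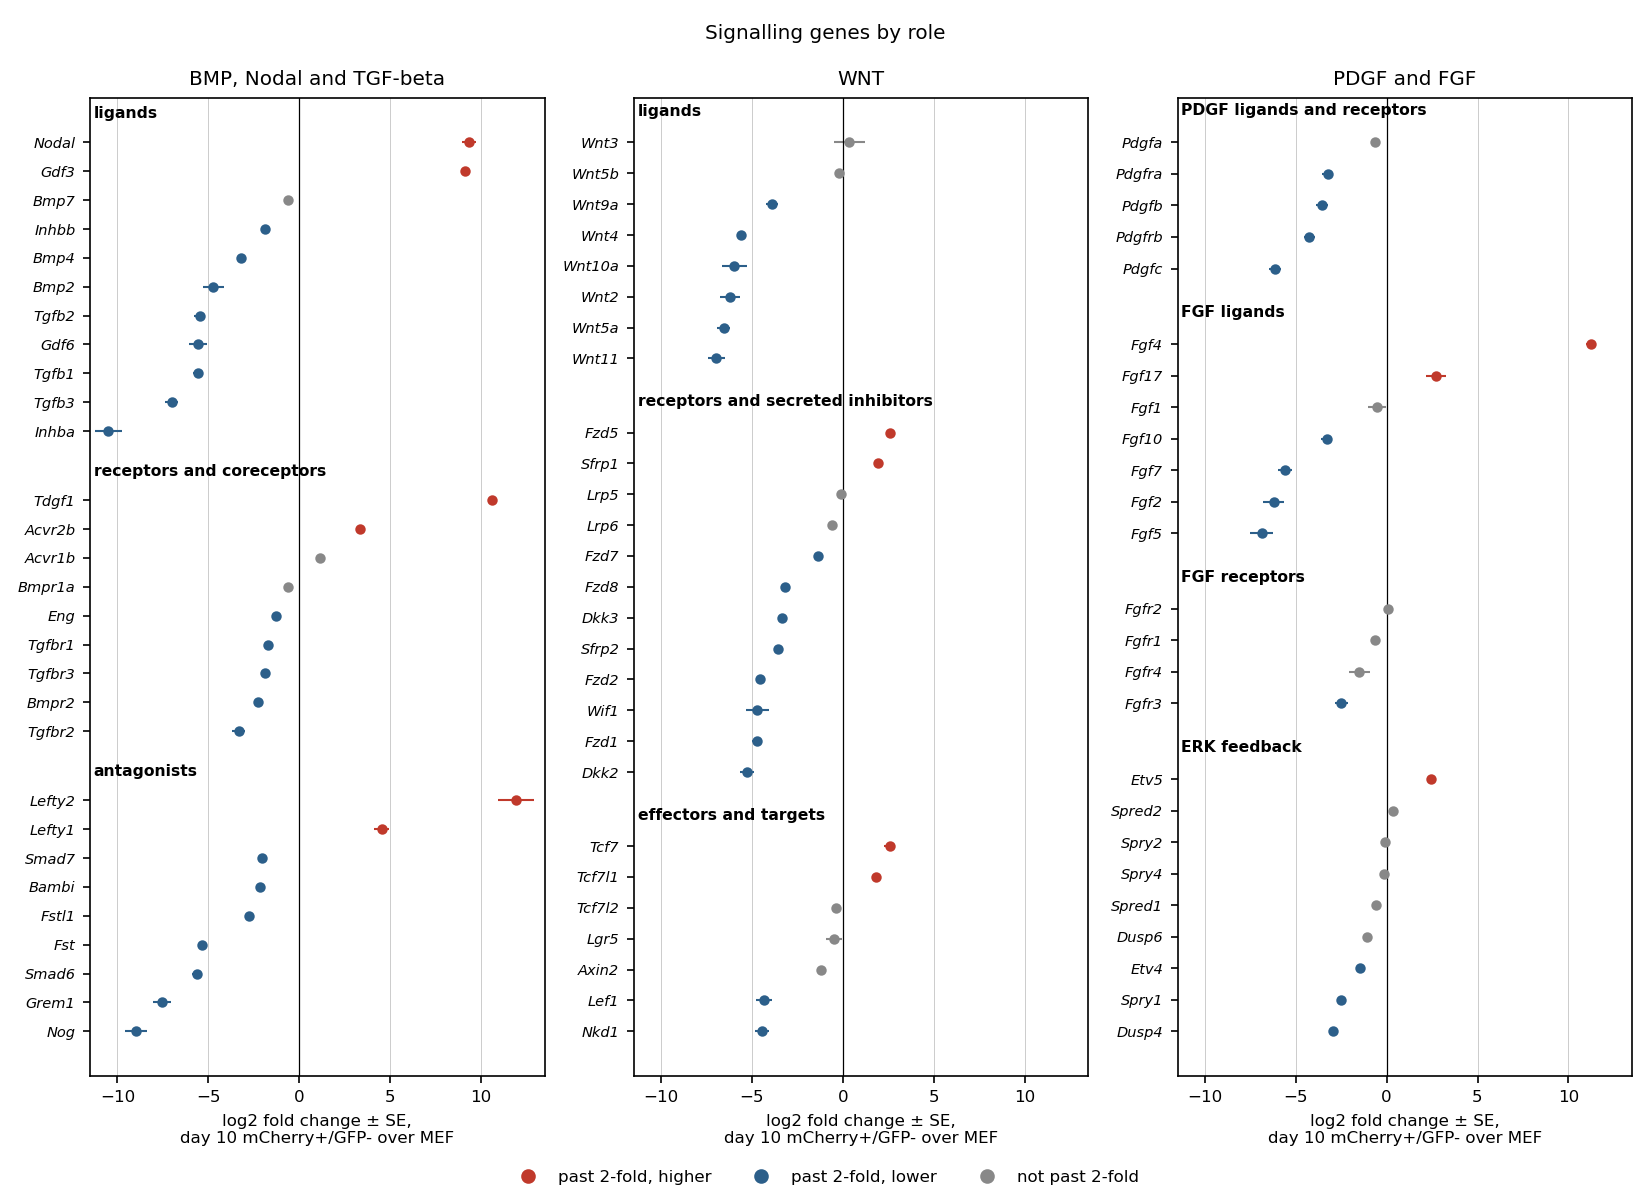
Log2 fold change of day 10 mCherry+/GFP- cells over MEF with its standard error for the tested genes of the BMP, Nodal and TGF-beta, the WNT, and the PDGF and FGF pathways, ordered by role, red where past 2-fold higher, blue where past 2-fold lower and grey otherwise. Nodal, Gdf3, Tdgf1, Lefty1, Lefty2 and Fgf4 stand to the right of 0 among ligands, coreceptors and antagonists that mostly stand to the left, and Lefty2, at 0 in MEF, is drawn at its fitted value.

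In the LIF and IL6 group of 15 genes 2 were past 2-fold higher and 10 past 2-fold lower. Lifr, the receptor for the cytokine that sustains mouse embryonic stem cells, rose to 79.04, 69.4 and 74.5 CPM in day 10 cells, against 44.2, 41.6 and 40.6 CPM in MEF, whereas its partner Il6st had 205, 203 and 171 CPM, against 412, 453 and 423 CPM in MEF. The STAT3 target Socs3 rose to 57.8, 90.6 and 84.6 CPM in day 10 cells, against 20.9, 23.7 and 13.6 CPM in MEF. Most genes of these roles went the other way. Of 5 receptors 0 were past 2-fold higher and 3 past 2-fold lower. Of 6 effectors and targets 2 were past 2-fold higher and 3 past 2-fold lower, with a median log2 fold change of -1.17. Of 24 genes of the IGF, growth factor receptor and Hedgehog group 2 were past 2-fold higher and 17 past 2-fold lower. Igf1r had 58.8, 58.5 and 52.9 CPM in day 10 cells, against 479.6, 447 and 503 CPM in MEF. The receptor kinase Kit rose to 28.9, 39.2 and 32.9 CPM in day 10 cells, against 2.17, 0.926 and 2.31 CPM in MEF, and its ligand Kitl fell to 4.97, 4.22 and 3.49 CPM, against 48.7, 42.8 and 46.1 CPM in MEF. Erbb3 rose to 52.3, 59.999 and 66.9 CPM in day 10 cells, against 6.28, 4.55 and 4.14 CPM in MEF, and Egfr fell to 42.4, 28.1 and 25.3 CPM, against 184, 172 and 212 CPM in MEF. In the Hedgehog branch Smo fell by 3.31 on the log2 scale, Ptch1 rose by 0.69 ± 0.17 and Gli1 was not called. Of 15 Notch genes 14 were tested and 4 were past 2-fold in each direction (against 17.4% higher and 21.4% lower of all genes tested). Notch4 had 20.5, 32.01 and 29.3 CPM in day 10 cells, against 0.88, 1.01 and 1.18 CPM in MEF, and the ligand Jag2 49.1, 63.2 and 65.3 CPM, against 1.82, 2.27 and 3.25 CPM in MEF, but the targets Hes1, Hey1 and Heyl fell, Hes1 to 20.9, 24.6 and 26.1 CPM in day 10 cells, against 110.4, 111 and 118 CPM in MEF.

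Of 22 retinoid and orphan receptor genes 21 were tested, 5 were past 2-fold higher and 12 past 2-fold lower. The orphan receptors of the early embryo rose: Nr0b1 had 73.1, 74.4 and 69.9 CPM in day 10 cells, against 0, 0.168 and 0 CPM in MEF, Nr5a2 had 64.2, 57.9 and 56.5 CPM, against 0.763, 0.253 and 0.887 CPM in MEF, and Nr6a1 had 83.8, 89.04 and 89.97 CPM, against 7.28, 5.98 and 7.45 CPM in MEF. The COUP receptors of mesenchyme fell, Nr2f2 to 5.72, 4.82 and 3.99 CPM in day 10 cells, against 80.6, 79.98 and 80.3 CPM in MEF. Nr3c1, the glucocorticoid receptor, had 17.5, 14.1 and 10.04 CPM in day 10 cells, against 173, 168 and 172 CPM in MEF. Among the retinoid genes, Cyp26a1, which degrades retinoic acid, rose by 4.28 ± 0.51 on the log2 scale, and Aldh1a2, which makes it, was at a log2 fold change of -3.64 ± 0.40.

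Among 22 KLF, SALL and MYC network genes 10 were past 2-fold higher and 3 past 2-fold lower. Klf4 had 472, 633 and 701 CPM in day 10 cells, against 137, 139.9 and 125 CPM in MEF, and Klf2 64.7, 126 and 135 CPM, against 42.2, 38.1 and 40.9 CPM in MEF. Klf5, the third of the factors known to act together in naive pluripotency, was not called, with 67.2, 28.1 and 26.4 CPM in day 10 cells and 44.4, 43.2 and 51.9 CPM in MEF, and line 1 was the highest. Without that line it was called lower, with a log2 fold change of -0.75. Klf6 fell to 59.7, 40.5 and 49.9 CPM in day 10 cells, against 443, 448 and 494 CPM in MEF. Mycn had 124, 211 and 228 CPM in day 10 cells, against 4.69, 2.27 and 3.78 CPM in MEF, where Myc had 449.9, 419 and 474 CPM, against 145, 149 and 147 CPM in MEF. Of the MXD repressors that oppose MYC, Mxd4 fell by 2.12 on the log2 scale. Mga, a MAX partner that represses germ cell genes, rose to 477, 364 and 401 CPM in day 10 cells, against 184, 180.3 and 190.2 CPM in MEF.

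Genes of neighbouring embryonic states were read beside these. Of 12 genes linked to the formative and primed states 9 were past 2-fold higher and 3 past 2-fold lower. Utf1 had 166, 196 and 189.8 CPM in day 10 cells, against 0.176, 0 and 0.177 CPM in MEF, and Foxd3 had 15.7, 32.9 and 29.2 CPM, against 1.29, 1.01 and 0.946 CPM in MEF. Otx2, which drives exit from the naive state, rose only to 2.69, 2.24 and 2.85 CPM in day 10 cells, against 0, 0.0842 and 0 CPM in MEF. The epiblast gene Fgf5 had 0, 0 and 0.142 CPM in day 10 cells, against 6.10, 8.00 and 6.21 CPM in MEF. Of 16 trophectoderm and placental genes 15 were tested, 8 past 2-fold higher and 4 past 2-fold lower. Tfap2c, shared by trophoblast and germ cells, had 207, 196 and 212 CPM in day 10 cells, against 0.235, 0.168 and 0.0591 CPM in MEF, but Eomes had 6.06, 4.69 and 3.78 CPM, against 0.528, 0.842 and 1.12 CPM in MEF, and Elf5 0.926, 1.52 and 0.57 CPM in day 10 cells with no count in MEF. Gata3, a trophoblast factor that fibroblasts also express, fell to 2.69, 1.65 and 1.99 CPM in day 10 cells, against 38.1, 39.8 and 38.9 CPM in MEF. Of 17 neural genes 12 were tested, 4 past 2-fold higher and 5 past 2-fold lower (against 17.4% and 21.4% of all genes tested). The microtubule regulator Stmn2 rose to 197, 130.2 and 136 CPM in day 10 cells, against 13.6, 12.5 and 11.5 CPM in MEF. The adhesion molecule Ncam1 fell to 34.4, 21.3 and 20.02 CPM in day 10 cells, against 568, 579 and 597 CPM in MEF.

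Polycomb subunits as a list lay near the shares of all genes tested, 17.4% past 2-fold higher and 21.4% past 2-fold lower. Of 20 subunits of PRC1, which ubiquitinates histone H2A and compacts chromatin, 19 were tested, and 5 were past 2-fold in each direction. Cbx7, the chromobox subunit of embryonic stem cells, had 135, 179 and 187 CPM in day 10 cells, against 1.53, 1.85 and 1.54 CPM in MEF, while Cbx8 had 0.673, 0.99 and 0.499 CPM, against 9.21, 6.90 and 7.92 CPM in MEF. Phc1 rose to 675, 523 and 539 CPM in day 10 cells, against 53.4, 52.03 and 52.1 CPM in MEF, and Phc2 fell to 65.6, 73.7 and 74.01 CPM, against 245, 251 and 249 CPM in MEF. The catalytic subunit Rnf2 was not called, with 130.5, 86.2 and 86.1 CPM in day 10 cells and 87.6, 84.6 and 84.9 CPM in MEF. It was called higher without day 10 line 2 or 3, without a filter on low counts and with scaling by totals alone. Pcgf6, which marks a variant complex on germ cell genes, had 84.7, 94.6 and 96.2 CPM in day 10 cells, against 24.3, 28.04 and 27.02 CPM in MEF. Of 25 BAF remodelling subunits 24 were tested and 2 were past 2-fold in each direction, under the shares of all genes. Those that fell were Smarcd3, with 0.168, 0.396 and 0.142 CPM in day 10 cells, against 23.6, 22.1 and 20.4 CPM in MEF, and Smarcc2, with 61.03, 43.4 and 39.5 CPM, against 132, 141 and 135 CPM in MEF. Those that rose past 2-fold were Smarcd1, by 1.82 ± 0.07, and Actl6a, by 1.12 ± 0.07, on the log2 scale.

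Genes of heterochromatin rose modestly. Of 16 genes for H3K9 methylation, its removal and KAP1 silencing 8 were past 2-fold higher and 0 past 2-fold lower, with a median of 1.15, though DESeq2's test put 2 past 2-fold. Trim28, which encodes KAP1, the corepressor of retroviral elements, had 801, 1140.2 and 1201 CPM in day 10 cells, against 438, 449 and 437 CPM in MEF, and the demethylase Kdm3b had 327, 327 and 367 CPM, against 111, 107 and 116 CPM in MEF. Suv39h2 rose by 1.83 ± 0.09, and its relative Suv39h1 was lower with a log2 fold change of -0.64 ± 0.14. Of 17 histone variant, linker and chaperone genes 5 were past 2-fold higher and 0 past 2-fold lower. H2afz, the variant H2A.Z, had 376, 465 and 449.7 CPM in day 10 cells, against 149.5, 151 and 141 CPM in MEF, and Chaf1b, a subunit of the CAF-1 chaperone, had 139, 106 and 109 CPM, against 33.3, 31.99 and 31.7 CPM in MEF. Atrx, a remodeller that deposits H3.3, had 1141, 608 and 686 CPM in day 10 cells, against 253, 257 and 259 CPM in MEF, with line 1 the highest.

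Relatives were followed in 20 pairs of related genes, for enzymes, subunits of complexes, transcription factors, and adhesion or binding proteins. The pairs were chosen with earlier results known, and 1 holds Tet1, the gene behind the sorted reporter. Their counts are therefore no rate for related genes at large. In 12 pairs 1 member was called higher and the other lower, in 6 both moved the same way and in 2 a member was not called. The widest gaps were between Cdh1 and Cdh2, at log2 fold changes of 8.38 and -6.34, and between Sall4 and Sall2, at 10.75 and -2.88. The TET enzymes diverged: Tet3 had 14.98, 18.2 and 16.4 CPM in day 10 cells, against 130.4, 120.2 and 131 CPM in MEF, where Tet1 rose by 6.19 ± 0.17. The DNA methyltransferase pair did so unevenly, with Dnmt3b at 227, 221 and 238 CPM in day 10 cells, against 6.92, 5.30 and 5.68 CPM in MEF, and Dnmt3a at 72.5, 81.6 and 67.4 CPM, against 124, 119.9 and 117 CPM in MEF. The cytochrome oxidase subunit of testis, Cox6b2, rose to 42.1, 66.5 and 72.2 CPM in day 10 cells, against 11.7, 10.4 and 10.2 CPM in MEF, and its general form Cox6b1 was not called. It was called higher without day 10 line 2, in the fit of the 6 libraries and with scaling by totals alone. The tubulin gene Tubb6 fell to 44.8, 41.1 and 40.9 CPM in day 10 cells, against 576, 624 and 611 CPM in MEF, and Tubb4b rose by only 0.35 ± 0.11.

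**Figure D4:**
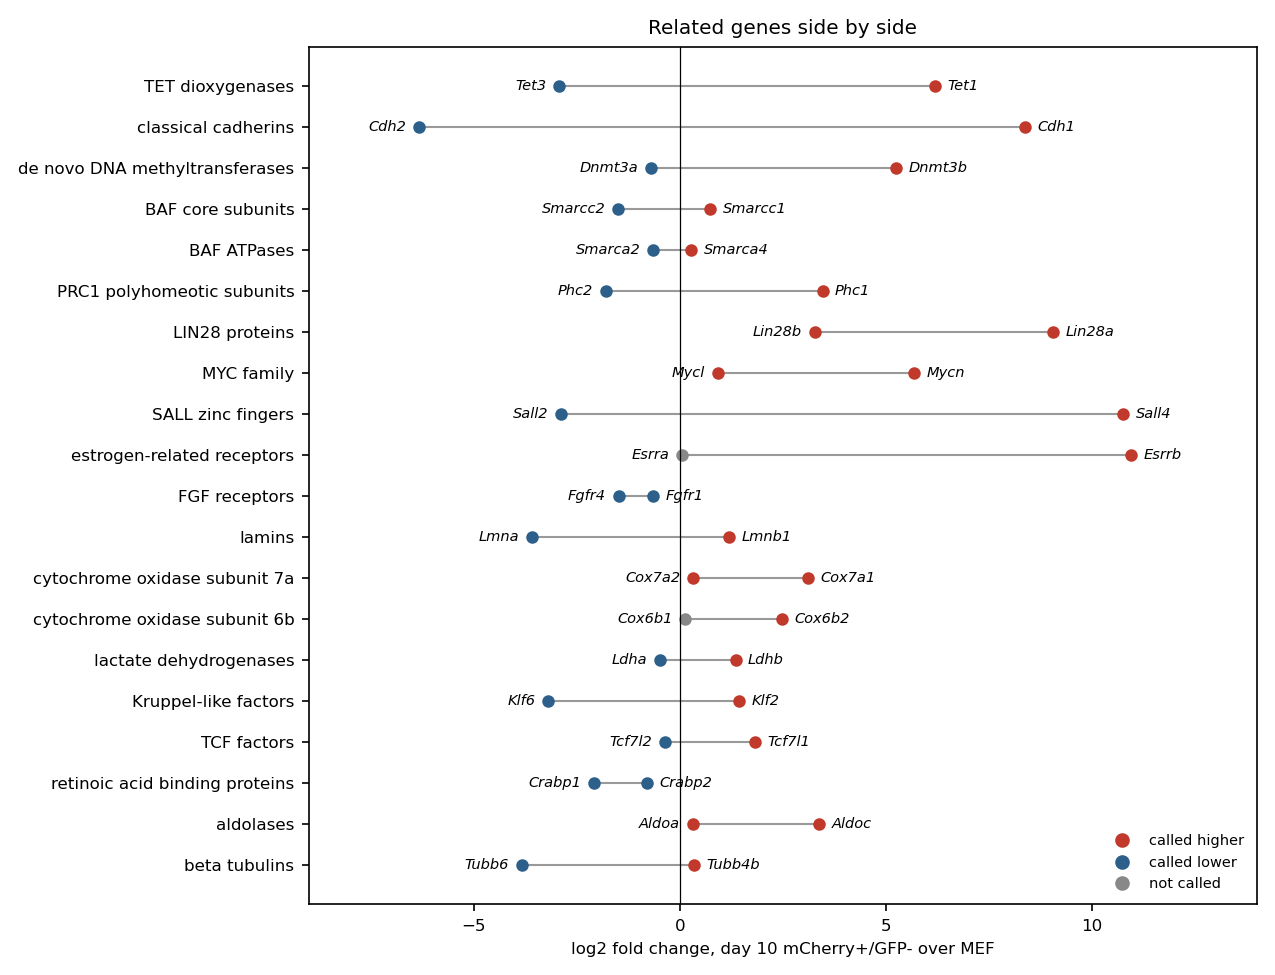
Log2 fold change of day 10 mCherry+/GFP- cells over MEF for both members of 20 pairs of related genes, joined by a line, red where called higher, blue where called lower and grey where not called. In 12 pairs the members lie on opposite sides of 0, with the longest lines for the pairs Cdh1 and Cdh2, and Sall4 and Sall2.

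Of 28 genes of RNA-binding proteins 7 were past 2-fold higher and 8 past 2-fold lower, near the shares of all genes tested (17.4% and 21.4%), so the values of single members are given. Mbnl1, which promotes splicing patterns of differentiated cells, had 76.4, 49.2 and 51.1 CPM in day 10 cells, against 411, 401 and 429 CPM in MEF, and Celf2 had 3.45, 5.35 and 2.28 CPM, against 118, 98.7 and 112 CPM in MEF. On the other side, Lin28a, which blocks the maturation of let-7 miRNAs, had 32.2, 42.8 and 43.7 CPM in day 10 cells, against 0.0587, 0.168 and 0 CPM in MEF, and Trim71 had 250.4, 343 and 382 CPM, against 7.28, 6.48 and 7.98 CPM in MEF. L1td1, an RNA-binding protein derived from a LINE-1 element, had 763, 479.9 and 483 CPM in day 10 cells, against 0.293, 0.421 and 0.0591 CPM in MEF. Hmga2, a let-7 target, fell to 171, 124 and 111 CPM in day 10 cells, against 1704, 1747 and 1710.4 CPM in MEF.

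MicroRNA genes were chosen after their values were seen. These libraries count reads of long poly(A) RNA over hairpin genes and host transcripts and do not measure mature miRNAs. Of 20 such genes tested 8 were past 2-fold higher and 4 past 2-fold lower (against 17.4% and 21.4% of all genes tested). All 7 hairpins of the Mir290 to Mir295 cluster, at chr7:3218626-3220841 on the plus strand, were among those higher. So 7 of the 8 come from 1 locus, and the count is not one of separate loci. Mir294 had 7, 68 and 44 counts in day 10 cells, against 0 counts in MEF, and Mir295 had 8, 66 and 70 counts, against 0 counts in MEF. Mir290a had 6, 35 and 33 counts in day 10 cells, against 0 counts in MEF, so line 1 was well under the other day 10 lines across the cluster. Mir17hg, the host of the miR-17 cluster, had 20.96, 36.2 and 35.6 CPM in day 10 cells, against 9.27, 9.09 and 8.57 CPM in MEF. Those that fell included Mir155hg, with 0, 1 and 0 counts in day 10 cells, against 40, 33 and 45 counts in MEF, and Mir196a-1, which lies within the Hoxb cluster, with 1, 2 and 3 counts, against 20, 16 and 19 counts in MEF. The mature sequences are shown because arms from 3 hairpins of the cluster share 1 seed (AAGUGCU) and others differ from it by a base or a shift. They are from RefSeq (GRCm38.p6), 5′ to 3′, with the seed, bases 2 to 8, in capitals.
miR-291a-3p: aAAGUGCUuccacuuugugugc
miR-294-3p: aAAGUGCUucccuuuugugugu
miR-295-3p: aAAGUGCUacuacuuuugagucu
miR-290a-3p: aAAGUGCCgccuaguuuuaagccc
miR-291b-3p: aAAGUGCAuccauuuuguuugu
miR-17-5p: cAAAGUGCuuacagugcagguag
miR-196a-5p: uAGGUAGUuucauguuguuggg
The arms miR-291a-3p, miR-294-3p and miR-295-3p come from hairpins that rose, as do miR-290a-3p and miR-291b-3p with seeds that differ in their last base. The seed of miR-17-5p holds AAGUGC one position later, and that of miR-196a-5p, from a hairpin that fell, is AGGUAGU.

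Of 19 G1 cyclins, kinases and inhibitors 2 were past 2-fold higher, under the share of all genes tested (17.4%), and 8 past 2-fold lower (against 21.4% of all genes tested). The D-type cyclins that answer to growth factors fell, Ccnd2 to 58.6, 60.3 and 42.03 CPM in day 10 cells, against 1543, 1549.8 and 1591 CPM in MEF, and Ccnd1 to 66.8, 67.5 and 57.8 CPM, against 691, 693 and 685 CPM in MEF. Ccne1, cyclin E, rose to 209, 224 and 235 CPM in day 10 cells, against 68.8, 64.4 and 70.2 CPM in MEF. The inhibitor Cdkn1a, p21, had 92.6, 118 and 113 CPM in day 10 cells, against 451, 447 and 502 CPM in MEF, and Cdkn2b, p15, had 4.29, 3.96 and 2.71 CPM, against 41.2, 39.1 and 35.4 CPM in MEF. Cdkn2a, a barrier to reprogramming, was higher in day 10 cells, with 30.8, 34.1 and 40.96 CPM, against 11.4, 10.3 and 11 CPM in MEF. Of 26 p53 and apoptosis genes 25 were tested, 7 past 2-fold higher (3 in DESeq2's test) and 6 past 2-fold lower. The shares of all genes tested were 17.4% and 21.4%, so this list did not stand far from them. Trp53 itself rose by 1.13 ± 0.10 on the log2 scale. The survival gene Bcl2 had 3.11, 2.64 and 2.14 CPM in day 10 cells, against 35.1, 34.7 and 36.2 CPM in MEF, and Bcl2l1, which encodes BCL-XL, had 22.98, 30.1 and 31.1 CPM, against 130.3, 134 and 145 CPM in MEF. The death-promoting genes Bmf and Pmaip1 rose, Bmf to 13.5, 14.8 and 22.2 CPM in day 10 cells, against 2.11, 2.86 and 2.07 CPM in MEF, and Pmaip1 by 1.20 ± 0.08 on the log2 scale.

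Of 10 tested telomere genes 6 were past 2-fold higher (3 in DESeq2's test) and 0 past 2-fold lower. Tert, the telomerase catalytic subunit, had 29.8, 35.2 and 36.04 CPM in day 10 cells, against 12.1, 10.9 and 14.1 CPM in MEF, and Terf1, a shelterin subunit known as a pluripotency marker, had 224, 168 and 176 CPM, against 37.4, 39.7 and 40.1 CPM in MEF. Among 16 nucleolar genes 14 were called higher (against 38.8% of all genes tested) and 1 lower, and 3 were past 2-fold higher, close to the 17.4% of all genes tested. Nolc1 had 678, 479 and 498 CPM in day 10 cells, against 223, 236 and 237 CPM in MEF, and Dkc1, shared by ribosome synthesis and telomerase, had 321, 261 and 272 CPM, against 113, 120.5 and 120.3 CPM in MEF. Ncl had 4074, 2432 and 2559 CPM in day 10 cells, against 1637, 1705 and 1641 CPM in MEF, with line 1 the highest again.

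Metabolic genes are described by list and by single steps, beside 17.4% of all genes tested past 2-fold higher and 21.4% past 2-fold lower. Of 22 genes of threonine, glycine and folate metabolism 7 were past 2-fold higher and 2 past 2-fold lower. Tdh, the threonine dehydrogenase that mouse embryonic stem cells depend on, had 416, 652 and 624 CPM in day 10 cells, against 0.235, 0.505 and 0 CPM in MEF, a log2 fold change of 11.28 ± 0.30 with an adjusted p of 4.4e-17. Gldc, part of the glycine cleavage system that passes on the carbon, rose to 169.5, 208 and 233 CPM in day 10 cells, against 1.53, 2.19 and 1.42 CPM in MEF. Its partner Amt rose to 95.3, 105 and 123 CPM in day 10 cells, against 1.29, 1.18 and 2.66 CPM in MEF, but the carrier protein of the system, Gcsh, rose by only 0.20 ± 0.07 on the log2 scale. Phgdh, the entry to serine synthesis, fell to 75.8, 134 and 139 CPM in day 10 cells, against 351, 345 and 335 CPM in MEF. Of 27 glycolysis genes 7 were past 2-fold higher (4 in DESeq2's test) and 4 past 2-fold lower. The glucose transporter Slc2a3 had 1034, 1392 and 1472 CPM in day 10 cells, against 46.1, 42.5 and 48.7 CPM in MEF, whereas Slc2a1 had 145, 172 and 156 CPM, against 204, 197 and 221 CPM in MEF, which was called lower. That call was lost without day 10 line 1 (adjusted p = 0.0964), day 10 line 3 (0.0539) or MEF line 3 (0.056), and with scaling by totals alone (0.502), with a lowest adjusted p of 0.0133 over the alternatives. Pdk1, a kinase that keeps pyruvate out of mitochondria, had 181, 175 and 165 CPM in day 10 cells, against 16.4, 14.2 and 13.4 CPM in MEF. Of the pyruvate carrier, Mpc1 fell to 4.46, 7.00 and 5.70 CPM in day 10 cells, against 14.5, 15.9 and 14.3 CPM in MEF, and Mpc2 fell to 6.48, 9.44 and 9.47 CPM, against 23.6, 22.8 and 24.5 CPM in MEF. The enolase gene Eno1 was not called, with a log2 fold change of -0.07 ± 0.15.

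Of 21 cholesterol and lipid genes 4 were past 2-fold higher and 2 past 2-fold lower (against 17.4% and 21.4% of all genes tested). Fabp3, a fatty acid carrier, had 127, 65.9 and 71.8 CPM in day 10 cells, against 5.22, 7.07 and 5.14 CPM in MEF, and Cpt1a, the gate to mitochondrial fatty acid oxidation, had 127, 135 and 126 CPM, against 45.9, 46.4 and 47.8 CPM in MEF. The desaturase gene Scd2 fell to 154, 169 and 155 CPM in day 10 cells, against 875, 941 and 715 CPM in MEF. Hmgcs1, an early step of cholesterol synthesis, was not called, with 194, 145 and 152 CPM in day 10 cells and 148, 153 and 134 CPM in MEF. It was called higher without line 2 of the day 10 cells and with scaling by totals alone. Of 19 lysosomal and secretory genes 0 were past 2-fold higher and 11 past 2-fold lower, among them 7 of 8 of the secretory pathway. Sec24d, a coat subunit needed for collagen export, had 22.3, 16.4 and 19.9 CPM in day 10 cells, against 254, 238 and 254 CPM in MEF, and Creb3l1, a factor that drives collagen secretion, had 4.88, 3.37 and 2.92 CPM, against 189, 169 and 170.0 CPM in MEF. Mia3, the collagen cargo receptor TANGO1, fell by less, with a log2 fold change of -0.78 ± 0.11.

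Innate immune genes did not move as a block. Of 18 interferon-induced genes 17 were tested, 5 past 2-fold higher and 1 past 2-fold lower (against 17.4% and 21.4% of all genes tested). By the first test 10 were called higher and 2 lower, with a median log2 fold change of 0.61. Of all genes tested 38.8% were called higher and 37.6% lower. Ifitm1 had 28.5, 47.5 and 62.8 CPM in day 10 cells, against 0.587, 1.43 and 0.946 CPM in MEF, Bst2, which tethers virions, had 67.8, 158 and 163 CPM, against 13.4, 11.6 and 12.5 CPM in MEF, and Oas2 had 9.51, 14.1 and 6.62 CPM, against 0.293, 0.758 and 0.532 CPM in MEF. The classical response genes Isg15, Ifit1 and Rsad2 were not called. None of 11 MHC class I genes was past 2-fold in either direction, though 2 were called higher and 4 lower. B2m, the light chain of MHC class I, fell to 139, 69.9 and 62.3 CPM in day 10 cells, against 182, 176 and 183 CPM in MEF, with line 1 nearest to MEF. Of 21 chemokine, complement and NF-kB target genes 4 were past 2-fold higher and 10 past 2-fold lower. Ccl2 fell to 2.36, 1.58 and 1.35 CPM in day 10 cells, against 64.6, 62.4 and 68.5 CPM in MEF, and Csf1 to 16.3, 15.8 and 10.1 CPM, against 686, 795 and 791 CPM in MEF. The 4 that rose were C3, C1s1, C1ra and Serping1, all genes of complement, C1s1 to 26.01, 26.7 and 19.9 CPM in day 10 cells, against 1.53, 1.35 and 0.946 CPM in MEF, and Serping1, its inhibitor, to 28.5, 28.7 and 20.9 CPM, against 5.81, 5.56 and 5.32 CPM in MEF.

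**Figure D5:**
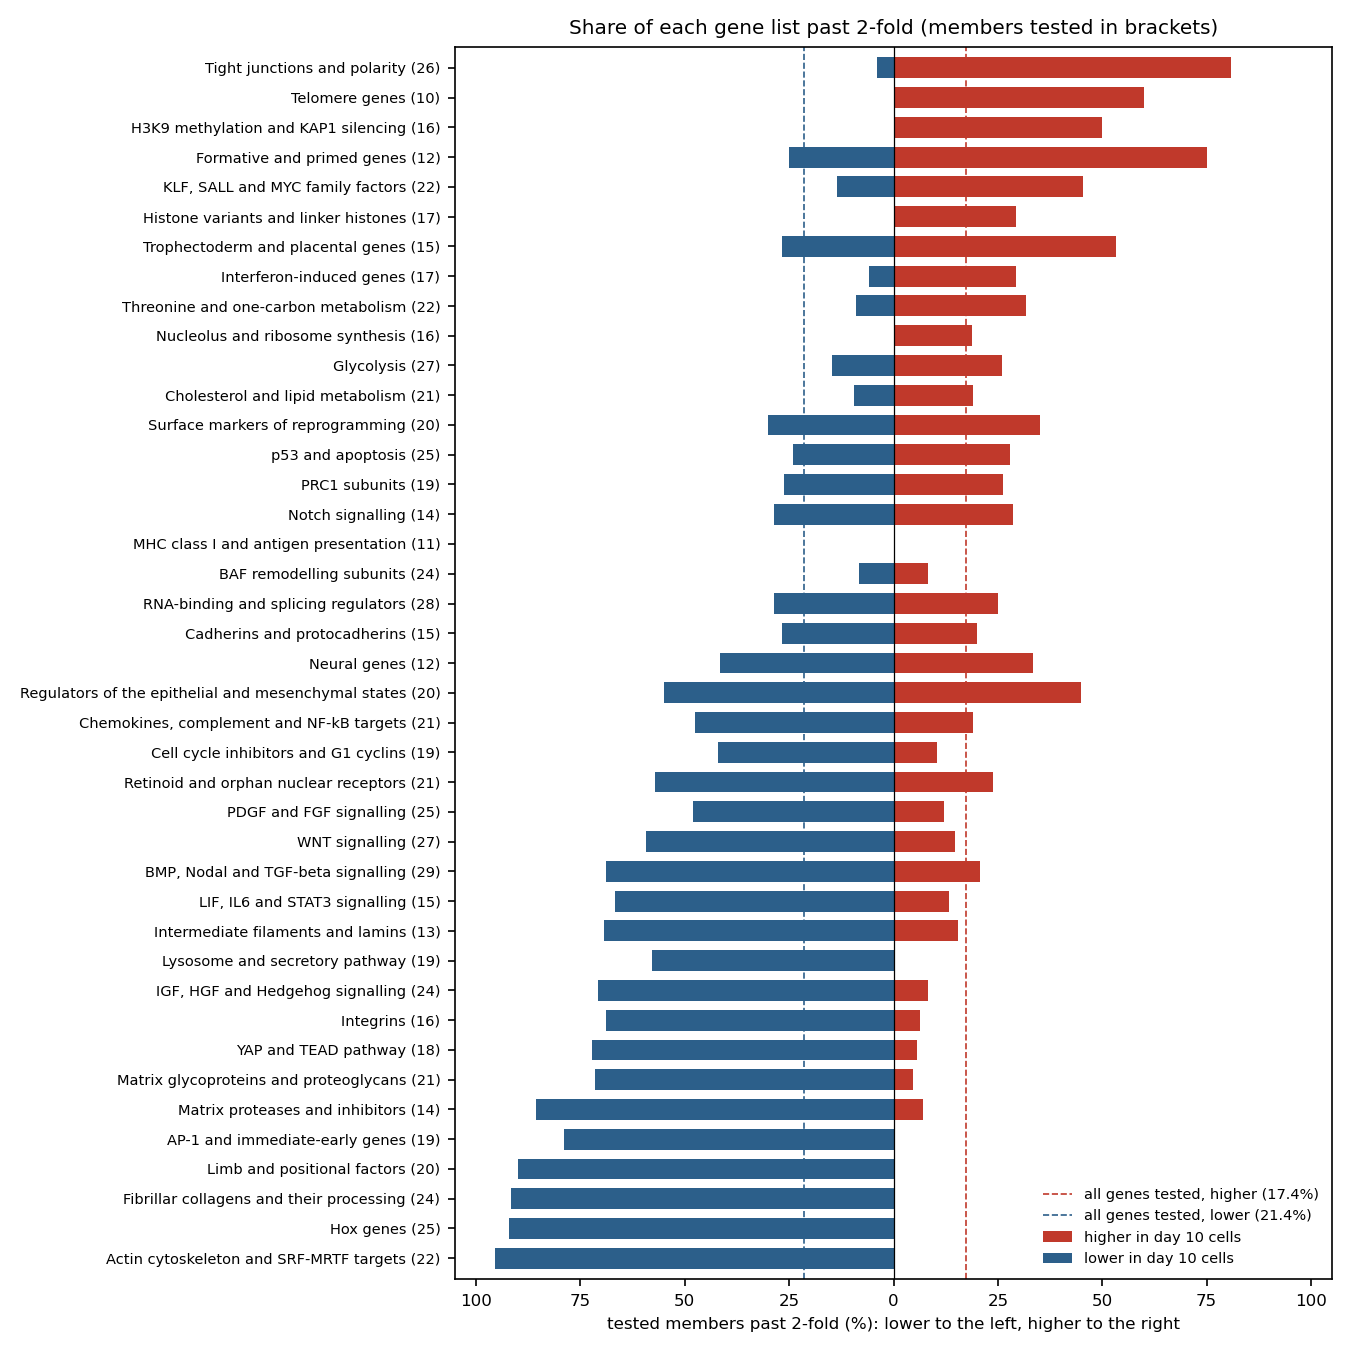
Share of tested members past 2-fold in each of 41 gene lists, in percent, with members higher in day 10 mCherry+/GFP- cells to the right and members lower to the left, and dashed lines at the shares among all genes tested, 17.4% higher and 21.4% lower. Collagens, actin genes, Hox genes, limb factors and AP-1 genes reach far to the left with nothing on the right, and tight junction, H3K9 and telomere genes reach to the right.

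Surface markers used to follow reprogramming were read last among the lists. Of 20 such genes 7 were past 2-fold higher and 6 past 2-fold lower (against 17.4% and 21.4% of all genes tested). Some went against the direction they are listed for. Of 12 listed as gained 7 were past 2-fold higher and 2 past 2-fold lower. Of 8 listed as lost from fibroblasts 0 were past 2-fold higher and 4 past 2-fold lower, and 1 was called higher by the first test. Cd44, the hyaluronan receptor that falls early in reprogramming, had 32.3, 47.5 and 53.6 CPM in day 10 cells, against 1013, 1035 and 1092 CPM in MEF. Alpl, alkaline phosphatase, had 442, 362 and 359 CPM in day 10 cells, against 2.64, 3.37 and 3.25 CPM in MEF, and Pecam1 had 33.7, 35.5 and 41.7 CPM, against 0.469, 0.758 and 0.532 CPM in MEF. Fut9, which makes the SSEA-1 epitope in mouse embryonic stem cells, had 104, 70.4 and 84.3 CPM in day 10 cells, against 0.704, 0.758 and 0.296 CPM in MEF. Icam1, which marks late intermediates in published sorting schemes, was not called, with 12.8, 12.9 and 15.5 CPM in day 10 cells and 12.5, 9.68 and 11.6 CPM in MEF.

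Markers of other cells that the fractions could hold were measured in the same libraries. Of all genes tested 38.8% were called higher and 37.6% lower. The 10 fibroblast markers summed to between 721 and 1208 CPM in day 10 cells, against 14968 to 16188 CPM in MEF, and 8 of them were called lower, Dcn (called with the replicate block) and Lum not. All 6 cartilage markers were called lower, Col2a1 with 1.52, 1.58 and 1.64 CPM in day 10 cells, against 673, 708 and 644 CPM in MEF. Of 10 skeletal muscle markers 8 were called lower and 1 higher, and Myod1 and Myf5 were at 0 in day 10 cells. Mylpf, a myosin light chain gene, was the exception at 116, 156 and 154 CPM in day 10 cells, against 20.8, 22.4 and 18.03 CPM in MEF. Of 10 leukocyte markers, 9 of them tested, 7 were called lower and 2 higher, with sums of 96.2 to 110.3 CPM in day 10 cells and 69.4 to 103 CPM in MEF. Laptm5 held most of the day 10 sum, with 90.6, 81.6 and 83.8 CPM, and the defining genes Tyrobp and Aif1 were at 0 there, while Csf1r had 0.337, 0.132 and 0.142 CPM in day 10 cells, against 18.9, 22.9 and 13.7 CPM in MEF. The 8 endothelial markers summed to between 55.7 and 64.6 CPM in day 10 cells and 54.1 to 59.5 CPM in MEF, with 3 called higher and 2 lower. They moved both ways: Pecam1, whose values are given above, rose, and Cldn5 had 0 counts in MEF. Kdr fell to 0, 0.132 and 0.0712 CPM in day 10 cells, against 45.9, 43.2 and 50.5 CPM in MEF. The 8 keratinocyte markers summed to 116 to 160 CPM in day 10 cells and 37.8 to 57.6 CPM in MEF, with 1 called higher (Perp) and 3 lower, and Krt14 and Dsg3 were at 0 in day 10 cells. The 8 neural and glial markers summed to 17.7 to 22.2 CPM in day 10 cells and 19.2 to 22.6 CPM in MEF, with 1 called higher and 2 lower. What part cells of these kinds have in the results above was not tested.

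Some genes that moved the same way were neighbours. Runs of at least 6 adjacent tested genes, all past 2-fold in the same direction, occurred 22 times, 10 with higher and 12 with lower genes. The longest held 12 lower genes at the Hoxb cluster at chr11:96251105-96354691, and the Hoxd cluster gave 8 at chr2:74652991-74707933. A run of 8 lower genes at chr6:14901349-17573980 (mm10) led from Foxp2 to Met and held the caveolins, Cav1 with 3.96, 3.83 and 2.92 CPM in day 10 cells, against 1358, 1326 and 1496 CPM in MEF. Among the higher runs, 8 genes at chr5:120648812-120907521 held the Oas genes of antiviral defence, Oas2 and Oas3 among them. A run of 7 higher genes held the metallothioneins, Mt1 with 374, 253 and 271 CPM in day 10 cells, against 27.05, 25.4 and 26.2 CPM in MEF, and Mt2 with 269.6, 258 and 295 CPM, against 14.96, 19.4 and 15.8 CPM in MEF. Another on the X chromosome held Pcsk1n, Eras and Gata1, the last of which had 5, 18 and 14 counts in day 10 cells and 0 in MEF. The Clec2 genes, some of which encode ligands of natural killer cell receptors, stood in a run of 6, Clec2i with 26.9, 19.1 and 26.1 CPM in day 10 cells, against 0, 0.0842 and 0 CPM in MEF. How far neighbours share transcripts was not tested.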

How the data were processed

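The table holds counts of reads per gene as deposited by the authors, made with featureCounts on the reverse strand over whole gene bodies, introns included, leaving out reads that fall in more than 1 gene, per the file headers. The submitters' processing notes name HISAT2 2.1.0, featureCounts 1.5.3, DESeq2 1.18.1 and the mm10 build. RNA was poly(A)-selected and libraries were stranded, per the labels' protocols. The 21 libraries of sequencing batch 1 (7 groups of 3 lines) were fitted with edgeR 4.0.16 in R 4.3.3 (TMM scaling, filterByExpr, robust quasi-likelihood, group as the only term), and day 10 cells were tested against MEF with Benjamini-Hochberg adjustment over all genes tested at 0.05. A second test on the same fit (glmTreat) asked for a fold change beyond 2. CPM was taken from TMM-scaled totals. Where every library of a group had 0 counts, the fold is a bound against 3 counts in the smallest library of that group, 0.253 CPM. CPM is not per length, so orders of genes by change in CPM and summed CPM of markers depend on gene length too. Levels were not otherwise compared between genes, and floors cover counting error only.

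Line numbers pair the samples, since the same 3 lines stand in both groups. Deviations from the group means correlated at 0.059, 0.096 and 0.063 between samples of the same line. The fit without the line as a block is reported, and the block was an alternative, beside other scalings, filters, samples, DESeq2 1.42.0 and leaving out each library. The fit was also run on counts simulated from its own dispersions, with 69 genes changed by 1.5-fold, 68 by 2-fold and 63 by 4-fold. It called 50.7%, 73.5% and 98.4% of them, and 4 of 15932 unchanged genes. Few genes changed there, so this run cannot test the scaling or error rate where most genes differ. Gene lists, pairs and the genes described were chosen with earlier results of these data known. The rule for naming genes took, where the libraries of the groups did not overlap and the higher mean was 10 CPM or more, the 12 called genes with the highest and the 12 with the lowest log2 fold change. It added genes at 0 in 1 group, the 6 with the largest CPM change each way, and members of the lists and pairs; some genes that it takes are not reported here. Lists are described by counts and medians with no set test. Sequences are from RefSeq (GRCm38.p6).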

Additional observations from a re-analysis of the deposited data

How the results depend on the processing

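The count of called genes lay between 11109 and 13181 across the alternatives, against 12319, with the lowest in the fit of only the 6 libraries and the highest without a filter on low counts. With each day 10 library left out it lay between 12179 and 12559, and with each MEF library left out between 11929 and 12042. Scaling by library totals alone called 7667 genes higher and 4997 lower, and moved the median log2 fold change of all genes to 0.343, against 0.063. With the line as a replicate block 12382 genes were called, 12265 of the 12319 among them, and 6304 were past 2-fold. DESeq2 put 4921 genes past 2-fold, and moved 4 of the list counts by over 1.5 times, all of members higher: 2 for H3K9 methylation and KAP1 silencing (8 in edgeR), 3 for p53 and apoptosis (7), 4 for glycolysis (7) and 3 for telomere genes (6). Counts of other lists also fell in DESeq2, by less, such as 20 Hox genes lower (23 in edgeR) and 7 LIF and IL6 genes lower (10). The cause was not tested.
Of the genes named, 1 called gene changed sign: Dld, the dihydrolipoamide dehydrogenase counted among the threonine and glycine genes, had a log2 fold change of -0.2495 (adjusted p = 0.0088 by edgeR's quasi-likelihood test) and 0.0234 with scaling by totals alone, and it was not called in the fit of the 6 libraries (-0.1554) or without day 10 line 2 (-0.1373), day 10 line 3 (-0.1875) or MEF line 2 (-0.2067). The others named whose sign turned were not called in the reported fit. Over all genes, 188 of the 12319 called changed sign with scaling by totals alone, 3 without day 10 line 1 and 2 without day 10 line 2. Scaling by totals alone gave log2 fold changes of 0.1013 for Plod1, 0.1849 for Lamc1 (called higher there), 0.0689 for Pbx3, 0.1118 for Spry4, 0.0482 for Klf5 and 0.2226 for Eno1. The fit of the 6 libraries gave 0.0001 for Lamc1 and 0.0267 for Eno1. With 1 library left out, Ier2 lay between -0.0356 and 0.2623, Fgfr2 between -0.1005 and 0.2660, Klf5 between -0.7527 and 0.0487 and Eno1 between -0.2351 and 0.1576.
Of the other uncalled genes, Icam1 was called higher with scaling by totals alone (0.5625) and in the fit of the 6 libraries (0.3784). Dld and 7 uncalled list members (Tpi1, Pgk1, Lrp5, Spry2, Mxd3, Ring1 and Zscan4c) count in their lists but were left undescribed after their values were seen, and are given here for that reason. Scaling by totals alone gave 0.2861 for Pgk1, 0.2010 for Lrp5, 0.2038 for Spry2, 0.2245 for Mxd3 and 0.0463 for Ring1. The fit of the 6 libraries gave 0.0956 for Pgk1, 0.0166 for Lrp5, 0.0140 for Spry2 and 0.0364 for Mxd3. Tpi1 had -0.0069 with RLE size factors, -0.0006 with a filter of 1 CPM in 3 libraries and -0.0071 in DESeq2, Pgk1 had 0.0258 without a filter on low counts, and Zscan4c had 0.0220 with the replicate block. With 1 library left out, Tpi1 lay between -0.0173 and 0.0981, Pgk1 between -0.0455 and 0.1149, Spry2 between -0.1355 and 0.0264 and Mxd3 between -0.0957 and 0.0194.
Depth limits genes near the floor of 3 counts, where a fold is only a bound, and line 1 of the day 10 cells limits mitochondrial genes and the calls of Klf5, Tjp1, Slc2a1, Fgfr4, Pbx3 and Ier2. Genes that lie under others on the same strand could not be read.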
